A study of Mus musculus with 4 samples.

Results

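The heat shock chaperones described here are 10 genes: the stress-inducible HSP70 copies Hspa1a and Hspa1b, the constitutive HSP70 Hspa8, the HSP90 pair Hsp90aa1 and Hsp90ab1, the nucleotide exchange factor Hsph1, the co-chaperone Dnajb1, the small heat shock protein Hspb1, and the mitochondrial chaperonin subunits Hspd1 and Hspe1. They were taken by symbol from the gene lists of the count matrices, in which each symbol named 1 of the 46983 genes, and were followed across the cell classes and the 4 libraries of a single-nucleus RNA-seq experiment on mouse brain ischemia. All animals were male C57Black/6 mice aged 3 months, and no genetic alteration was named for any group. The groups were sham control and 1 day, 3 days and 7 days after permanent middle cerebral artery occlusion (MCAO), in which the artery was coagulated and cut under isoflurane. Each group was 1 library from 3 pooled forebrain hemispheres, so the animals of a group could not be told apart and no difference between groups had a replicate check. The labels called the control sham, whereas the treatment protocol described uninjured cortex, and the control library held striatal projection neurons. The breakdown of nuclei by time point in the study fits the deposited libraries only with day 3 and day 7 exchanged. The deposited labels were kept, so the day 3 and day 7 values below carry this doubt, and the sham control and day 1 values do not.

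Heat shock proteins bind unfolded or aggregating proteins, and some of their families use cycles of ATP binding to refold them or pass them on for degradation. The HSP70 family does the first binding, J-domain proteins of the HSP40 family such as Dnajb1 deliver the client, HSP110 proteins such as Hsph1 exchange the nucleotide, HSP90 finishes the folding of kinases and receptors, and the HSP60 and HSP10 rings fold proteins imported into mitochondria. When misfolded protein accumulates, heat shock factor 1 (HSF1) is freed, forms trimers and binds heat shock elements, which are inverted repeats of the unit nGAAn. Induction of HSP70 in neurons around an infarct is a classical mark of proteotoxic stress after stroke.

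The promoters are shown first because Hspa1a and Hspa1b stood furthest apart at day 1 and their promoters carry the motif of heat shock elements in the same place. Promoters of 250 bases before to 50 bases after the start were taken from RefSeq on GRCm38.p6, and 7 of the 10 members had one: Hspa1a, Hspa1b, Hsph1, Dnajb1, Hspb1, Hspd1 and Hspe1. Both strands were searched for GAANNTTC and TTCNNGAA, each its own reverse complement, and for the 13-letter run of 3 units, GAANNTTCNNGAA or its complement TTCNNGAANNTTC, which contains the shorter ones. These members had 10 promoters in all, Hsph1, Dnajb1 and Hspd1 having 2 each. A match of either short motif was found in 7 of the 10 promoters, all but both of Dnajb1 and 1 of Hspd1, and in 15.1% of all 32851 promoters. A run of 3 units was found in 4 of the 10, namely both of Hsph1, 1 of Hspd1 and that of Hspe1, and in 0.603% of all promoters. The 10 are not separate windows, since the promoters of Hsph1 overlap each other and 1 promoter of Hspd1 and that of Hspe1 share most of their bases on opposite strands. The lines below give the 150 bases before the start of Hspa1a (chr17:34972157-34972306, minus strand), Hspa1b (chr17:34959239-34959388, minus strand) and Hspb1 (chr5:135887769-135887918, plus strand), with the matches in capitals, and then the matched sites of Hspe1 (chr1:55088053-55088082, plus strand), Hspd1 (the same bases read on the minus strand) and Hsph1 (chr5:149636351-149636380 and chr5:149636280-149636308, minus strand).
Hspa1a: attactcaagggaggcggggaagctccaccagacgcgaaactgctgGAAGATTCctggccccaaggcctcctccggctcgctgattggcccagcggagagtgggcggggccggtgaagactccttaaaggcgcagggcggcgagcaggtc
Hspa1b: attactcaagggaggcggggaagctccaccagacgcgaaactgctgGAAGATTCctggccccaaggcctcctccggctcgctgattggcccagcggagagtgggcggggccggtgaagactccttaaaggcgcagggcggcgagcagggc
Hspb1: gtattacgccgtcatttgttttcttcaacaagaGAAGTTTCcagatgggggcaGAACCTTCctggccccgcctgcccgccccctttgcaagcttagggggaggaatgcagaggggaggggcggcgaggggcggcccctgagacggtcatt
Hspe1 site: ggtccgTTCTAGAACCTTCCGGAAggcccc
Hspd1 site: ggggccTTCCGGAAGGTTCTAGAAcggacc
Hsph1 upstream site: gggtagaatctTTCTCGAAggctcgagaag
Hsph1 downstream site: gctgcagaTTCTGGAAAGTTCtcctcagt
The 2 HSP70 promoters had the same base at 296 of 300 positions, with the match 104 bases before the start in both. Hspb1 held matches 117 and 97 bases before its start, and Hsph1 held matches 54 bases before and 16 bases after 1 of its RefSeq starts. The bidirectional promoter of Hspd1 and Hspe1 held 1 run that begins 89 bases before the Hspe1 start. These matches describe letters in a window and were not read as bound sites.

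A library's level of a gene is its unique molecular identifiers (UMIs) summed over the nuclei of a class per 1000000 UMIs of those nuclei (CPM). Its error is the exact Poisson interval, a ratio to the sham control has an exact conditional binomial interval, both at 95%, and both cover counting error only, not differences between animals. A gene is called higher or lower where that ratio passed 1.5-fold with at least 20 UMIs over the 2 sums. The libraries held 23285489 to 42963698 UMIs, 51.8% to 60.4% of them in called nuclei, and kept 2115 sham control, 1019 day 1, 3073 day 3 and 1569 day 7 nuclei with medians of 6335, 10945, 5393 and 6970 UMIs. At most 3 barcodes were shared by any 2 libraries. Clusters were named only from marker genes, giving 11 classes and 1 unnamed cluster, and 8 classes had at least 20 nuclei in every library. Of the detected markers, all 16 of microglia, all 16 of oligodendrocytes, all 14 of striatal projection neurons, 14 of 15 of astrocytes, 12 of 14 of GABAergic neurons, 10 of 12 of oligodendrocyte precursors and 8 of 15 of glutamatergic neurons were highest in their own class. The class called neuron (any) holds neurons with no further type, and 1 of its 10 markers was highest there. The mitochondrial share of UMIs was 0.461, 0.497, 0.744 and 0.540% in sham control, day 1, day 3 and day 7, and 12 immediate-early genes, which respond to activity and handling, summed to 132, 126, 102 and 77.4 CPM. Levels below are given in the same order of libraries.

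At day 1, 7 of the 10 chaperones were called higher than in the sham control over all nuclei and none was called lower. Of all genes with enough UMIs, 7.89% were called higher and 5.81% lower. The median log2 ratio of the 10 genes was 1.05 (0.79 to 1.36, the medians of the interval ends), against 0.02 over all genes. The 7 were Hspa1a, Hspa1b, Dnajb1, Hsph1, Hspe1, Hspb1 and Hspd1, whereas Hsp90aa1 stopped just short of the threshold at 1.48-fold and Hsp90ab1 and Hspa8 were at 1.10-fold and 1.07-fold. Much of this difference was held by few nuclei. Without the nuclei that carried at least 3 UMIs of Hspa1a plus Hspa1b, a choice made after the data were seen, 2 genes were higher and 1 lower, and the median log2 ratio was 0.18. The 2 were Hspa1a (5.71-fold) and Hspa1b (17.9-fold), the genes that chose these nuclei, and the lower one was Dnajb1 (0.604-fold). No sham control nucleus was left out.

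**Figure D1:**
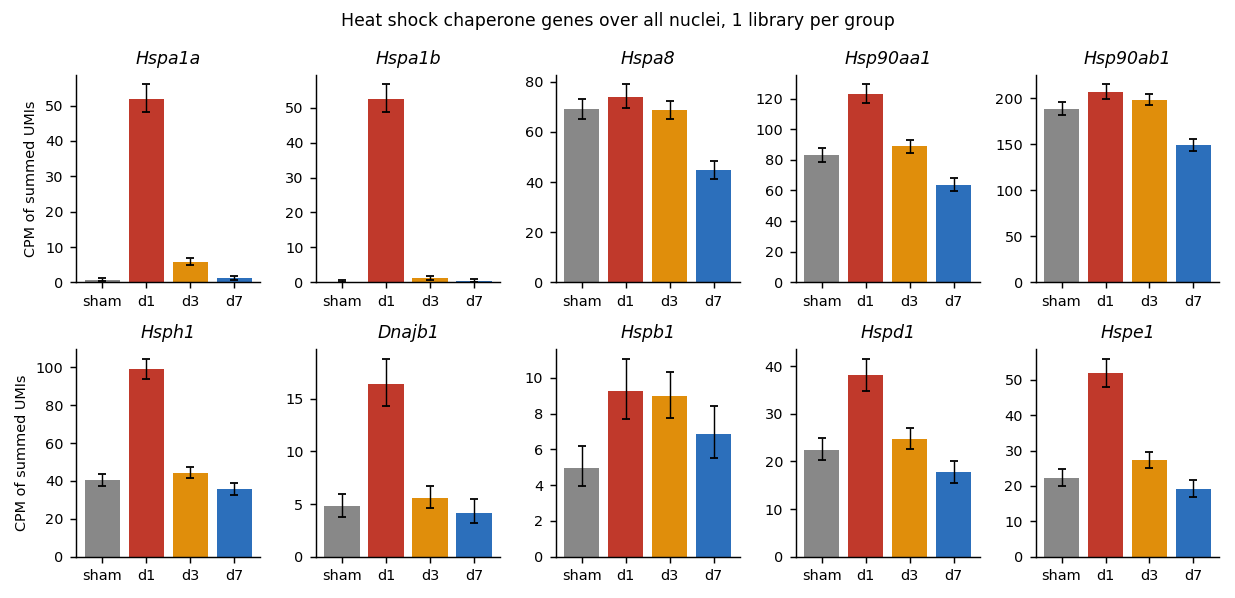
Levels of the 10 chaperones over all nuclei, in 1 panel per gene. The x axis gives the 4 libraries, the y axis the CPM of summed UMIs, from 0, and the error bars the 95% Poisson intervals, which cover counting error only. Hspa1a and Hspa1b stood at 51.9 and 52.5 CPM at day 1 against 0.790 and 0.243 CPM in the sham control, whereas Hspa8 was at 74.1 and 69.0 CPM.

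The stress-inducible HSP70 copies had the highest day 1 ratios of the 10 members. Hspa1a, an intronless gene at chr17:34969190-34972156 on the minus strand (GRCm38, GENCODE vM21), was at 0.790, 51.9, 5.81 and 1.20 CPM, from 13, 673, 123 and 16 UMIs. The day 1 level was 65.7 (95% interval 38.2 to 124) times that of the sham control, and the day 3 level 7.35 (4.14 to 14.2) times. Its neighbour Hspa1b, at chr17:34956436-34959238 on the same strand, was at 0.243, 52.5, 1.27 and 0.448 CPM, from 4, 681, 27 and 6 UMIs. That is 216 (84.0 to 795) times the sham control at day 1. A cluster of 29 day 1 nuclei that was given no cell type name held 813 of the 1354 day 1 UMIs of the pair, and without that cluster the day 1 ratios were 33.3 for Hspa1a and 89.9 for Hspa1b, an alternative chosen after seeing the data. For both copies the day 1 library lay far above the other libraries, and the sham control and day 7 libraries held no more than 1 UMI of either copy in any nucleus. The copies share 58.8% (Hspa1a) and 62.3% (Hspa1b) of their 50-base windows but none in the last 500 bases, and reads that fit both may have been dropped or split, so the level of each copy is less certain than their sum. Hspa1a also overlaps Gm20481 on the opposite strand, and the strand setting of the counting is not given in the sources used here.

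Nuclei with at least 1 UMI of either copy made up 0.804% of the sham control (0.469 to 1.28, exact binomial), 11.8% of day 1 (9.86 to 13.9), 1.56% of day 3 (1.15 to 2.07) and 1.40% of day 7 (0.881 to 2.12) nuclei. With every nucleus thinned to 1000 UMIs, Hspa1a was seen in 0, 1.86, 0.293 and 0.255% and Hspa1b in 0.0473, 1.57, 0.130 and 0% of nuclei. No class is known to lack these genes, so classes are compared instead: 17.7% of day 1 glutamatergic neurons (median 15616.5 UMIs) and 8.13% of day 1 oligodendrocytes (median 3087.5 UMIs) had a UMI of the pair. Thinned to 1000 UMIs, Hspa1a was seen in 2.63% and 0.625% of these nuclei. The UMIs themselves were far more concentrated than these shares. At day 1 the nucleus with the most held 455 of 1354 UMIs of the pair (33.6%), and the 10 nuclei with the most held 80.3%. At least 3 UMIs of the pair were found in 28 day 1 nuclei (2.75%, 1.83 to 3.95) and 4 day 3 nuclei. None of the 2115 sham control nuclei and none of the 1569 day 7 nuclei reached 3, which allows shares of up to 0.142% and 0.191% by the limit of 3 counts and 0.174% and 0.235% by the exact binomial interval.

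**Figure D2:**
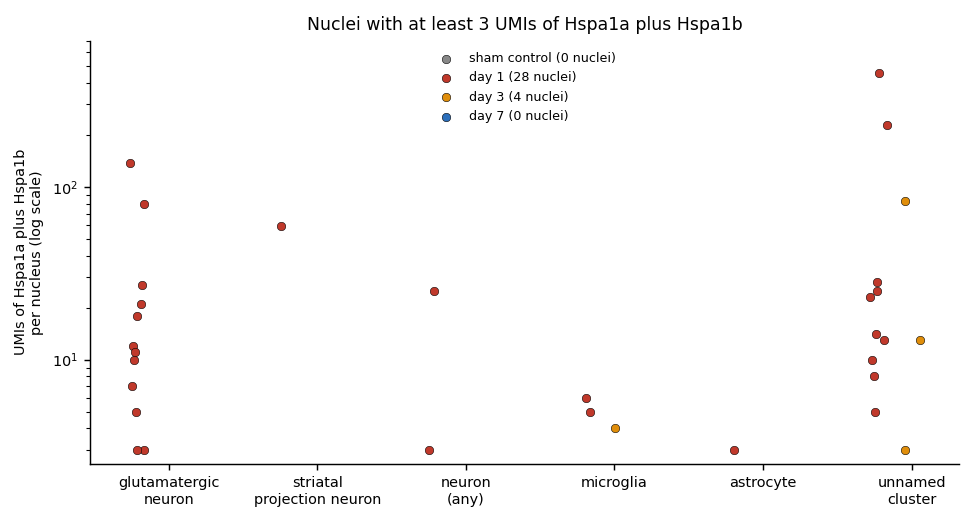
UMIs of Hspa1a plus Hspa1b per nucleus (y axis, log scale) for the nuclei with at least 3, by class (x axis) and library (colour), each point being 1 nucleus. The 28 day 1 nuclei ran from 3 to 455 UMIs and lay mostly in glutamatergic neurons (12) and the unnamed cluster (10), and 4 were from day 3.

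The 28 day 1 nuclei were 12 of 266 glutamatergic neurons, 10 of 29 nuclei of the unnamed cluster, 2 of 205 neurons of the class neuron (any), 2 of 45 microglia, 1 of 127 striatal projection neurons and 1 of 62 astrocytes. None was found among the 160 oligodendrocytes, 65 GABAergic neurons or 36 oligodendrocyte precursors. Of the 12 glutamatergic nuclei, 5 lay in a cluster of 62 day 1 nuclei and 5 in a cluster of 30. Of the 4 day 3 nuclei, 3 belonged to the unnamed cluster and 1 to microglia. These 28 nuclei held 4.22% of all day 1 UMIs but 91.7% of Hspa1a and 92.1% of Hspa1b UMIs, which defined them. Of genes not used to choose them they held 83.1% of Dnajb1, 56.7% of Hsph1, 53.2% of Hspe1, 37.5% of Hspb1, 35.5% of Hspd1, 24.5% of Hsp90aa1, 19.0% of Hspa8 and 17.4% of Hsp90ab1 UMIs. Every one of these shares exceeded the share of all UMIs.

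The inducible copies were also present in free RNA. Free RNA, read from barcodes below the nuclei, held Hspa1a at 7.29, 82.3, 9.30 and 6.74 CPM, so it too was highest at day 1. With the share of free RNA in each class estimated from oligodendrocyte genes, and in oligodendrocytes from neuronal genes, free RNA alone would put Hspa1a at 10.1 CPM and Hspa1b at 6.70 CPM in day 1 nuclei. Over all day 1 nuclei the measured 51.9 and 52.5 CPM stood above these. In glial nuclei at day 1, Hspa1a was at 9.86 CPM with 27.2 expected from free RNA, and Hspa1b at 14.2 with 18.0 expected. The glial levels are therefore not read as expression. In glutamatergic neurons the measured levels of 38.6 and 41.5 CPM stood above the 5.26 and 3.48 CPM expected, but the 12 high nuclei of the class held 156 of 183 Hspa1a and 179 of 197 Hspa1b UMIs. The part of free RNA in the UMIs of the other nuclei was not tested, since those nuclei were set apart by their UMIs of the pair itself.

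The co-chaperones of the HSP70 cycle were both higher at day 1, and in both cases the nuclei high in Hspa1a and Hspa1b held most of the UMIs. Dnajb1 (chr8:83608193-83612653, plus strand), the J-domain protein that delivers clients to HSP70, was at 4.80, 16.4, 5.62 and 4.18 CPM, from 79, 213, 119 and 56 UMIs. Its day 1 level was 3.42 (95% interval 2.63 to 4.49) times that of the sham control, and day 3 and day 7 were within counting error of it. Without the nuclei high in Hspa1a and Hspa1b the ratio was 0.604 (0.395 to 0.906), on the other side of the sham control. No sham control nucleus was high in the pair, so only the day 1 sum was cut, and this ratio is not read as a lower level. Hsph1 (chr5:149614287-149636376, minus strand), the HSP110 nucleotide exchange factor, was at 40.6, 98.9, 44.2 and 35.8 CPM. Day 1 was 2.44 (2.22 to 2.68) times the sham control, while day 3 and day 7 were at 1.09 (0.984 to 1.20) and 0.882 (0.782 to 0.993). Without the high nuclei the day 1 ratio was 1.10. After thinning, Dnajb1 was seen in 0.426, 0.785, 0.651 and 0.255% and Hsph1 in 4.78, 6.28, 4.85 and 3.57% of nuclei.

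Neither HSP90 gene nor Hspa8 passed the threshold at day 1. Hsp90aa1 (chr12:110690605-110702728, minus strand), the stress-inducible alpha isoform, was at 83.1, 123, 88.7 and 63.9 CPM, and day 1 was 1.48 (95% interval 1.38 to 1.59) times the sham control. This interval lies on both sides of the threshold, so the gene is just outside the count. With nuclei thinned to 1000 UMIs the ratio was 1.65, past the threshold. Without the nuclei high in Hspa1a and Hspa1b the Hsp90aa1 ratio was 1.17 (1.08 to 1.26), and without the unnamed cluster it was 1.29. Hsp90ab1 (chr17:45567775-45573271, minus strand), the constitutive beta isoform, was at 189, 207, 199 and 149 CPM, with a day 1 ratio of 1.10 (1.04 to 1.16). Hspa8 (chr9:40800984-40810087, plus strand), the constitutive HSC70 that also strips clathrin from vesicles at synapses, was at 69.0, 74.1, 68.6 and 44.8 CPM, with a day 1 ratio of 1.07 (0.984 to 1.17). With free RNA subtracted, the day 1 ratios were 2.42 for Hsp90aa1 and 1.78 for Hspa8, both past the threshold, and 1.19 for Hsp90ab1. However, the free RNA expected in the sham control was 75.8 of the 83.1 CPM of Hsp90aa1 and exceeded the measured level of Hspa8. The Hspa8 ratio was 0.969 thinned and 0.907 without the high nuclei, and that of Hsp90ab1 was 1.01 and 0.945. Thinned to 1000 UMIs, Hsp90aa1 was seen in 10.2, 15.1, 10.8 and 7.20%, Hsp90ab1 in 20.2, 19.0, 21.0 and 15.4% and Hspa8 in 8.37, 7.95, 9.27 and 6.31% of nuclei. Hspa8 spans 3 small nucleolar RNA genes on its own strand (Snord14c, Snord14d and Snord14e), whose reads cannot be told apart from it in counts over whole genes.

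The mitochondrial chaperonin subunits, which share a promoter, were both higher at day 1. Hspe1 (chr1:55088132-55091307, plus strand), the HSP10 lid, was at 22.4, 51.9, 27.3 and 19.2 CPM, and its day 1 ratio was 2.32 (2.04 to 2.64). Hspd1 (chr1:55077835-55088243, minus strand), the HSP60 ring, was at 22.5, 38.0, 24.7 and 17.7 CPM, with a day 1 ratio of 1.69 (1.47 to 1.94). The genes overlap at their 5′ ends on opposite strands, so part of either level may come from the other if strand was ignored. Without the high nuclei the day 1 ratios were 1.13 for Hspe1 and 1.14 for Hspd1. Seen in thinned nuclei, Hspe1 reached 3.12, 4.12, 3.87 and 2.93% and Hspd1 2.60, 3.63, 3.38 and 1.91%.

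Hspb1 (chr5:135887919-135889563, plus strand), the small heat shock protein HSP27 that holds unfolded proteins, was highest in endothelial nuclei in every library. Over all nuclei it was at 4.98, 9.25, 8.97 and 6.87 CPM, and both day 1 (1.86, 1.39 to 2.49) and day 3 (1.80, 1.38 to 2.36) were called higher. Without the nuclei high in Hspa1a and Hspa1b the day 1 ratio was 1.21 (0.874 to 1.68). It was 1.27 thinned and 1.31 with free RNA subtracted, but 1.70 without the top nucleus and 1.82 without the unnamed cluster. In endothelial nuclei Hspb1 was at 388, 738, 322 and 578 CPM, from only 40, 6, 72 and 21 nuclei. In the sham control this was 31.9 times the next class (95% interval 5.50 to 1279). The day 3 endothelial level was 0.829 (0.609 to 1.14) times that of the sham control, although 140 of the 190 day 3 UMIs lay in these nuclei. With class shares fixed at those of the sham control, the day 3 log2 ratio over all nuclei was 0.08, and endothelial nuclei were 1.89% of sham control and 2.34% of day 3 nuclei. At day 1, 52 of the 120 UMIs lay in neuronal nuclei. Glutamatergic neurons had 0.738, 6.96, 1.35 and 0.649 CPM, from 4, 33, 11 and 3 UMIs, and 25 of the 33 day 1 UMIs came from 1 nucleus.

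Across the classes of the sham control, Hspa8 and Hsp90ab1 were highest in endothelial nuclei and Hsp90aa1 in ependymal nuclei. Hspa8 was highest in endothelial nuclei at 369 CPM, 2.52 times the next class (1.34 to 5.17). Hsp90ab1 was highest there too, at 977 CPM and 2.17 times the next class (1.63 to 2.93). Hsp90aa1 was highest in the 17 ependymal nuclei, at 340.3 CPM and 1.59 times the next class (1.01 to 2.54). Free RNA was expected to give 165 CPM of Hspa8 and 274 CPM of Hsp90ab1 in the endothelial nuclei and 71.0 CPM of Hsp90aa1 in the ependymal nuclei, less than was measured. Glutamatergic neurons had measured levels of 49.2 (Hspa8), 56.3 (Hsp90aa1) and 135 CPM (Hsp90ab1), of which free RNA was expected to give 55.6, 50.8 and 92.3 CPM. In astrocytes and microglia the levels of these genes were below those expected from free RNA, so no order is read among the lower classes. Hsph1 was highest in ependymal nuclei at 122 CPM, but this did not differ from the next class beyond counting error (1.73 times, 0.841 to 3.59). For Dnajb1, Hspd1 and Hspe1 the intervals of the highest class and the next met as well.

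**Figure D3:**
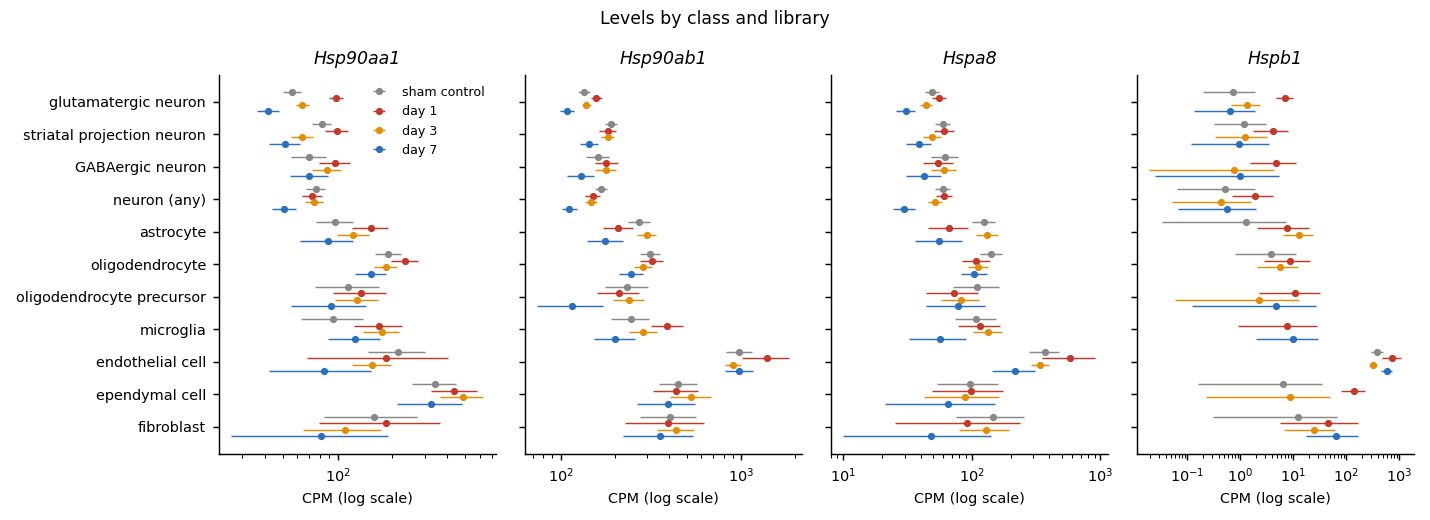
Levels of Hsp90aa1, Hsp90ab1, Hspa8 and Hspb1 by class (y axis) and library (colour), as CPM on log x axes with 95% Poisson intervals, sums of 0 UMIs not being drawn. Endothelial nuclei stood highest for Hspb1 in every library, at 388, 738, 322 and 578 CPM.

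Split by lineage, more members passed the threshold at day 1 in neuronal than in glial nuclei. In neuronal nuclei 6 of 10 members were called higher at day 1 and none lower, with 8.54% of all genes higher and 4.36% lower, and the median log2 ratio was 1.01 (0.81 to 1.20) against 0.03 over all genes. In glial nuclei 2 of the 8 members with enough UMIs were higher (Hspa1b and Hspd1) and none lower, with 9.45% of all genes higher and 9.44% lower. Their median log2 ratio was 0.27 (-0.15 to 0.72) against -0.01. The difference between the lineages was not tested, since each group is 1 library, and without the nuclei high in Hspa1a and Hspa1b the neuronal median was 0.13. Glial nuclei were shallower, with a day 1 median of 3559 UMIs against 14191 in neuronal nuclei, and in them the levels of all 10 members were below those expected from free RNA.

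Glutamatergic neurons had the most members called at day 1, 8 of 10 higher and none lower, where 9.48% of all genes in the class were higher. Hsph1 was at 35.0, 112, 42.0 and 35.2 CPM (day 1 ratio 3.21, 2.71 to 3.80) and Hspe1 at 15.3, 50.8, 15.9 and 16.4 CPM (day 1 ratio 3.32, 2.58 to 4.31). Dnajb1 was at 3.69, 17.3, 5.05 and 3.46 CPM, a day 1 ratio of 4.69 (2.85 to 8.07) of which 47 of 82 UMIs came from 1 nucleus. Hsp90aa1 and Hspd1 were at 1.74 (1.50 to 2.02) and 1.73 (1.37 to 2.21). With free RNA subtracted the day 1 ratios were larger, at 9.23 for Hsp90aa1, 20.4 for Hspe1 and 8.43 for Dnajb1, but little was then left of some sham control levels, the expected free RNA being 13.7 of 15.3 CPM for Hspe1 and 50.8 of 56.3 CPM for Hsp90aa1. Hspa1a rested on 2 sham control and 183 day 1 UMIs (CPM ratio 105, 28.5 to 870.0), and Hspa1b on 1 and 197. The members not called were Hsp90ab1 at 1.17 (1.05 to 1.30) and Hspa8 at 1.13 (0.953 to 1.35).

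In striatal projection neurons 6 of 9 members were higher at day 1, with 9.59% of all genes, but these calls leaned on 1 nucleus. It held 28 of 32 Hspa1a, 31 of 35 Hspa1b, 16 of 17 Dnajb1 and 77 of 146 Hsph1 UMIs. Hsph1 was 1.62 (1.28 to 2.04) times the sham control with it and 0.818 times without it. Hspe1 was at 2.05 (1.43 to 2.95) and 1.37 without its top nucleus, and Hspd1 at 1.73 (1.17 to 2.55) and 1.26. The class neuron (any) had 2 of 9 members higher, with 5.55% of all genes, and these were Hspa1a and Hspa1b. In this class 1 nucleus held 13 of 23 Hspa1a and 12 of 19 Hspa1b day 1 UMIs, and the sham control had 1 UMI of each. They were at 7.30 and 6.03 CPM at day 1. Free RNA, at 82.3 and 54.5 CPM, was an estimated 8.04% of the class, and its part was not tested. GABAergic neurons had none of 6 higher, with 8.71% of all genes, and 1 lower, with 8.5%. This was Hspe1 at 0.606 (0.292 to 1.20), an interval that holds 1. Their Hsph1 was at 1.37 (0.804 to 2.34) and their Hsp90aa1 at 1.39 (1.03 to 1.88).

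Microglia had 5 of 6 members higher at day 1, but 19.7% of all genes were higher in this class of 45 day 1 nuclei. Hsp90aa1 was at 94.9, 168, 174 and 125 CPM and Hsp90ab1 at 244, 391, 288 and 201 CPM, with day 1 ratios of 1.77 (1.08 to 2.96) and 1.60 (1.17 to 2.19). After thinning, the Hsp90ab1 ratio was 0.907. Hsph1 was at 3.01 (1.51 to 6.42), of which 13 of 32 UMIs came from 1 nucleus, and at 0.886 without the 2 high nuclei. Free RNA was expected to give 469.6 CPM of Hsp90aa1 and 762 CPM of Hsp90ab1 in this class, more than was measured, and its part in these ratios was not tested.

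Astrocytes had 2 of 6 members higher, with 9.72% of all genes. These were Hsp90aa1 at 1.57 (1.13 to 2.18) and Hspd1 at 1.95 (0.970 to 4.00), whereas Hspa8 was lower at 0.532 (0.349 to 0.795), as were 17.1% of all genes. Oligodendrocytes had none of 6 higher or lower, with 10.6% of all genes higher, and their largest ratio was Hsph1 at 1.33 (0.836 to 2.13). Oligodendrocyte precursors had none of 5 higher, with 18.4% of all genes, and Hspa8 (0.658, 0.346 to 1.23) and Hsph1 (0.617, 0.266 to 1.39) lower, both with intervals that hold 1, beside 13% of all genes lower. With 36 day 1 precursor nuclei and 12 to 20 day 1 UMIs of these genes, these differences were not separated from counting error.

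**Figure D4:**
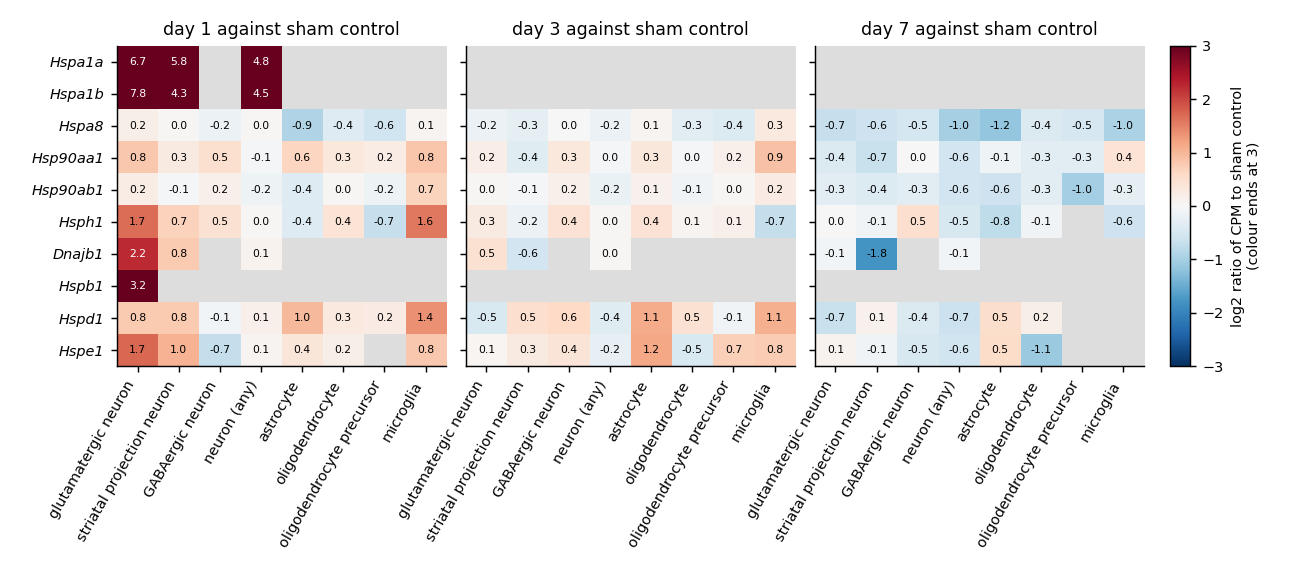
Log2 ratio to the sham control of the 10 chaperones (rows) in 8 classes (columns), in 1 panel each for day 1, day 3 and day 7. Red is higher, blue lower, the colour scale ends at 3, grey cells had under 20 UMIs over the 2 sums, and Hspa1b in striatal projection neurons at day 1 is a lower bound over 3 UMIs. Glutamatergic neurons had the most members called higher at day 1, where Hsph1 was 3.21 times and Hspe1 3.32 times the sham control, and no member was called higher in any of the 8 classes at day 7.

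The glutamatergic neurons show how far the other 8 members went with the inducible pair from nucleus to nucleus. Day 1 nuclei of this class were divided by their UMIs of Hspa1a plus Hspa1b into 219 with 0, 35 with 1 or 2 and 12 with at least 3, and set beside the 497 sham control nuclei. Hsph1 was at 1159 CPM (1034 to 1296) in the 12, 167 (135 to 205) in the 35, 33.6 (28.1 to 39.8) in the 219 and 35.0 (30.2 to 40.4) in the sham control. For Hsph1, nuclei with no UMI of the pair were thus within counting error of the sham control, and the level was higher in each step above. Hspe1 followed with 519.7, 55.1, 18.3 and 15.3 CPM, and Hsp90aa1 with 501, 107, 69.4 and 56.3. The Hsp90aa1 level in nuclei with no UMI of the pair was 1.23 (1.04 to 1.46) times that of the sham control, an interval that leaves out 1 though the ratio is within the 1.5-fold threshold. Dnajb1 was at 277, 3.68, 1.53 and 3.69 CPM, with a UMI in 10 of the 12 nuclei. Hspb1 was at 105, 3.68, 0.763 and 0.738 CPM, but 25 of its 28 UMIs in the 12 nuclei came from 1 nucleus and 3 of the 12 held any. Its 3.68 CPM rested on 2 UMIs (0.445 to 13.3) and was not separated from the sham control at this depth. Hspd1 (269, 29.4, 23.1 and 21.8) and the constitutive Hsp90ab1 (486, 147, 137 and 135) and Hspa8 (161, 58.8, 48.3 and 49.2) were also highest in the 12 (all in CPM). The factors were smaller for Hsp90ab1 and Hspa8.

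These 12 nuclei were deeper than the others. Their median was 23370 UMIs, against 14391, 15511 and 9666 in the 3 other sets. A count threshold favours deep nuclei, while CPM does not scale with depth. Their mitochondrial share was 0.136%, against 0.257, 0.170 and 0.108%. The 12 immediate-early genes summed to 441 CPM in them, against 167, 100.2 and 161 CPM, and the part of activity or handling in the chaperone levels was not tested. They made up 5.64% of the UMIs of the class and 90.2% of its Dnajb1, 58.2% of its Hsph1, 57.7% of its Hspe1 and 40.2% of its Hspd1 UMIs. Without them the class ratios at day 1 were 1.42 for Hsph1, 1.49 for Hspe1, 1.31 for Hsp90aa1, 1.10 for Hspd1 and 0.484 for Dnajb1. None of the first 4 then reached 1.5-fold, and Dnajb1 was past it in the other direction, from 8 day 1 and 20 sham control UMIs and with an interval of 0.185 to 1.15 that holds 1.

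**Figure D5:**
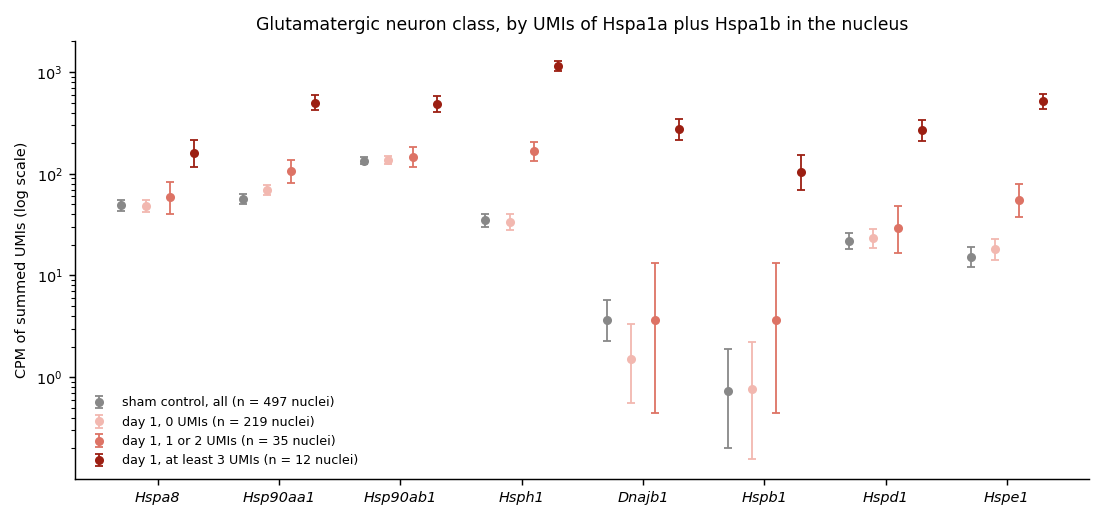
Levels of the other 8 chaperones (x axis) in glutamatergic neurons, as CPM on a log y axis with 95% Poisson intervals, for the 497 sham control nuclei and the 219, 35 and 12 day 1 nuclei with 0, 1 or 2, and at least 3 UMIs of Hspa1a plus Hspa1b. The 12 nuclei stood highest for every gene, with Hsph1 at 1159 CPM against 33.6 CPM in nuclei with 0.

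The unnamed cluster had the highest day 1 level of 7 of the 10 members, all but Hspa8, Hsp90ab1 and Hspb1, which were highest in the 6 endothelial nuclei. It held 23, 29, 95 and 31 nuclei, 1.09, 2.85, 3.09 and 1.98% of the libraries, and had 7.06 to 10.2% mitochondrial UMIs. Its 10 leading genes by fold included the choroid plexus markers Ttr and Tmem72, together with Hspa1a and 5 mitochondrial genes. It scored highest for choroid plexus cells and was left unnamed because of those mitochondrial genes. Hspa1a was there at 14.1, 1529, 206 and 4.77 CPM, with 247 of 413 day 1 and 82 of 91 day 3 UMIs in 1 nucleus each. Hsph1 was at 70.6, 1177, 79.4 and 85.9 CPM (day 1 ratio 16.7, 9.95 to 30.1). The 10 nuclei high in the pair differed from the other 19 of day 1 in Hsph1 (2697 against 119 CPM), Dnajb1 (749 against 6.28), Hspe1 (1488 against 138) and Hsp90ab1 (2453 against 546). Their mitochondrial share was 5.18% against 8.36%, and their immediate-early sum 1263 against 126 CPM. Markers of several classes were present together in the 10 nuclei, with summed levels of 4861 CPM for glutamatergic neurons, 4149 for astrocytes and 451 for choroid plexus cells, so no cell type is given to them. The share of free RNA in the cluster, estimated from oligodendrocyte genes, was 29.8, 42.1, 81.9 and 85.1%. Its part in the marker and chaperone levels of the cluster was not tested. The sham control nuclei of the cluster had 19673 CPM of choroid plexus markers, so the cluster did not hold the same mixture in every library.

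At day 3 the median member was close to the sham control. Over all nuclei 3 of 10 members were higher (Hspa1a, Hspa1b and Hspb1) and none lower, with 7.38% of all genes higher and 5.07% lower, and the median log2 ratio was 0.18 (-0.000899 to 0.41) against -0.02. The Hspa1a level of 5.81 CPM held 82 of its 123 UMIs in 1 nucleus, and without the top nucleus the ratio was 2.65. Hspa1b was at 5.24 (1.83 to 20.6) from 27 UMIs, no nucleus having more than 4. In neuronal nuclei 1 of 9 members was higher (Hspa1a, from 4 and 16 UMIs) and none lower, with 4.58% and 5.71% of all genes, and the median was 0.01 against -0.06. Glial nuclei had 2 of 8 higher and none lower, with 9.52% and 6.36% of all genes. These were Hspb1 (3.34, 1.10 to 13.6, 18 UMIs) and Hspd1 (1.63, 1.16 to 2.33). Astrocytes had 2 of 6 members higher at day 3, both mitochondrial, with Hspd1 at 21.0, 40.9, 45.4 and 30.3 CPM and Hspe1 at 28.8, 37.0, 64.6 and 41.9 CPM. Their day 3 ratios were 2.17 (1.18 to 4.16) and 2.24 (1.34 to 3.86), with 11% of all genes higher in the class. The astrocyte mitochondrial share of UMIs was 0.995% in the sham control and 1.87% at day 3. The estimated share of free RNA in astrocytes was 33.5% in the sham control and 46.0% at day 3. Free RNA itself held Hspd1 at 95.5 and 82.3 CPM and Hspe1 at 178 and 160 CPM, and its part in these ratios was not tested. Microglia had 3 of 6 members higher and 1 lower at day 3, with 22.3% of all genes higher and 14.5% lower. Hsp90aa1 was at 1.84 (1.18 to 2.94), Hspd1 at 2.10 (0.866 to 5.82), Hspe1 at 1.71 (0.761 to 4.19) and Hsph1, the lower one, at 0.612 (0.245 to 1.52). The intervals of the last 3 hold 1, and they rest on 7 to 12 sham control and 11 to 23 day 3 UMIs.

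At day 7 the median member lay below the sham control. Over all nuclei 1 of 9 was higher and 1 lower, with 6.83% of all genes higher and 5.82% lower, and the median log2 ratio was -0.22 (-0.51 to -0.01) against -0.05. Hspa8 was the lower one, at 0.649 (0.587 to 0.717) times the sham control. Hspa1a was higher by the rule of size from 13 and 16 UMIs, but its interval (0.682 to 3.42) holds 1. Neuronal nuclei had none of 7 higher and 1 lower, with 6.27% and 6.28% of all genes, and a median of -0.44 against -0.06. Glial nuclei also had none of 7 higher and 1 lower, with 8.62% and 11.1% of all genes, and a median of -0.46 against -0.04. In both lineages the lower gene was Hspa8, at 0.592 (0.522 to 0.671) and 0.624 (0.502 to 0.773).

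Hspa8 was called lower at day 7 in 5 of the 8 classes with enough nuclei, at 0.619 (0.501 to 0.762) in glutamatergic neurons, 0.653 (0.497 to 0.850) in striatal projection neurons, 0.504 (0.396 to 0.637) in the class neuron (any), 0.449 (0.274 to 0.709) in astrocytes and 0.516 (0.269 to 0.957) in microglia. GABAergic neurons (0.692, 0.463 to 1.02), oligodendrocytes (0.738, 0.542 to 1.00) and oligodendrocyte precursors (0.702, 0.350 to 1.37) were within the threshold. The shares of all genes called lower at day 7 were 7.17%, 8.83%, 10.6%, 18.3% and 14.1% in the first 5 of these classes and 13.1%, 14.8% and 14.1% in the other 3. Hspd1, Hspe1 and Hsph1 were each lower in 2 classes and Hsp90aa1 and Dnajb1 in 1. Hsp90ab1 was lower in 3 classes, namely the class neuron (any) (0.666, 0.587 to 0.756), astrocytes (0.649, 0.493 to 0.848) and oligodendrocyte precursors (0.497, 0.293 to 0.819). Free RNA differed in the same direction, in that its Hspa8 level at day 7 was 0.723 times and its Hsp90aa1 level 0.758 times that of the sham control. Over all nuclei the Hspa8 expected from free RNA was 82.9 CPM in the sham control and 66.9 CPM at day 7, both above the measured 69.0 and 44.8 CPM. An estimate above the measured level cannot be subtracted to give a direction, and the part of free RNA in the day 7 difference was not tested.

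Of the wider chaperone network, a list of 87 other genes of which 86 were in the files, few passed the threshold, and the shares are to be read beside those of all genes given above. Over all nuclei 5 of 85 genes with enough UMIs were higher and 2 lower at day 1, with a median log2 ratio of 0.07, 9 of 86 were higher and 1 lower at day 3, and 2 were higher and 2 lower at day 7. In neuronal nuclei the counts were 5 higher and 1 lower, 2 and 1, and 0 and 4 of 83 at day 7, and in glial nuclei 4 and 4 of 79, 8 and 2 of 81, and 0 and 11 of 79. The heat shock factors Hsf1, Hsf2, Hsf4 and Hsf5 and their binding protein Hsbp1 were within 1.5-fold over all nuclei on every day, Hsf1 being at 1.08, 0.918 and 1.02 times the sham control. HSF1 is controlled mainly at the protein, which these data do not measure.

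The genes of this list with the largest ratios on each day included a steroid receptor co-chaperone and a ubiquitin gene. Fkbp5, an HSP90 co-chaperone of steroid receptors that glucocorticoids induce, was at 52.9, 130.2, 91.7 and 65.7 CPM, or 2.46 (2.26 to 2.67) times the sham control at day 1. Ubb, which encodes ubiquitin, was at 95.4, 60.3, 53.4 and 24.4 CPM and differed the other way, at 0.256 (0.227 to 0.289) at day 7. At day 3 the leading genes were Sdf2l1 of the endoplasmic reticulum (2.44, 1.49 to 4.14), Serpinh1, the collagen chaperone HSP47 (2.34, 1.72 to 3.24), and Hspb8, a small heat shock protein of chaperone-assisted autophagy (2.33, 1.38 to 4.08). Sdf2l1 was at 1.67 (0.928 to 3.06) at day 1, an interval that holds 1. Ahsa1, the activator of the HSP90 ATPase, was at 0.649 (0.544 to 0.773) at day 7.

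Across the 32 sums of 8 classes and 4 libraries, the members that follow each other most were Hspa8 and Hsp90ab1, whose log2(CPM + 1) levels had a Pearson r of 0.887, then Hsp90aa1 and Hsp90ab1 (0.861), Hspd1 and Hspe1 (0.835), Hsp90aa1 and Hspa8 (0.829) and Hspa1a and Hspa1b (0.725). The genes outside both lists whose pattern was most like the mean pattern of the 10 members, among 10742 genes, were H3f3b (0.789), Pdap1 (0.777), Rexo1 (0.777), Set (0.773) and Gm23935 (0.759). H3f3b, a histone H3.3 gene, was at 51.1, 57.1, 58.8 and 42.3 CPM over all nuclei. The 32 sums share libraries, depth and free RNA, so these values describe the profiles and carry no p-value.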

How the data were processed

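Nuclei of 4 libraries, each from 3 pooled hemispheres, were profiled with Chromium 3' v3.1 chemistry. The authors aligned and counted reads with STARsolo (STAR 2.7.3a) on GRCm38 over whole genes with introns, collapsed UMIs and deposited unfiltered matrices of UMI counts for every barcode, with 46983 genes. The counts are raw and were used as deposited. Depth was 23285489 to 42963698 UMIs per library.

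Nuclei were called with a re-implementation of emptyDrops (lower limit of 1000 UMIs, FDR of 0.001), which gave 7921, and Scrublet as implemented in scanpy removed 145 doublets. Nuclei were clustered with Seurat 5.3.0 and sctransform 0.4.2 (30 principal components, resolution of 0.8) without the 10 chaperone genes and the wider chaperone list, and clusters were named from 194 marker genes of 15 classes. Raw counts were summed by class and library and scaled to the total (CPM). Intervals were exact Poisson for levels, conditional binomial for ratios and Clopper-Pearson for shares, at 95%. With 1 library per group no test between groups was possible and no p-value was computed. Ratios are printed from the sums as they are, whereas for medians, counts and alternatives a sum under 3 UMIs was raised to a floor of 3. Higher or lower means past 1.5-fold with at least 20 UMIs over both sums.

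Free RNA was read from barcodes below the called nuclei, and its share in each class was set by 5 oligodendrocyte genes, or 5 neuronal genes for oligodendrocytes. Gene positions came from GENCODE vM21 on GRCm38, which matched 46488 gene identifiers, whereas the files were counted on vM8. The members, the lists and the rules were chosen with earlier results of these data known. The named genes were all 10 members, per day the 3 genes of the wider list with the largest absolute log2 ratio among those with at least 50 UMIs, and the 5 other genes most correlated with the members among those with at least 500 UMIs. Genes of the wider list outside this rule, Hsf1, Hsf2, Hsf4, Hsf5 and Hsbp1, are its heat shock factor group. A gene that this rule names is not reported here. Scripts were tested on simulated data. Alternatives covered TMM factors (edgeR 4.0.16), thinning, free RNA, depth, doublets, mitochondrial share, class makeup, clustering resolution, thresholds and single nuclei. Python 3.11.15, numpy 2.4.6, scipy 1.17.1, pandas 2.3.3, matplotlib 3.10.9 and R 4.3.3 were used.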

Additional observations from a re-analysis of the deposited data

Results flagged for a closer look

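The heat shock genes also appeared in data that the comparisons of nuclei do not use, the free RNA in barcodes below the called nuclei. In the day 1 library Hspa1a was at 82.3 CPM of free RNA, against 7.29 in the sham control, 9.30 at day 3 and 6.74 at day 7. Hspa1b was at 54.5 CPM of free RNA at day 1, against 3.28 in the sham control, 5.22 at day 3 and 4.92 at day 7. The source of this RNA was not tested.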

How the results depend on the processing

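Of the values of the set over all, neuronal and glial nuclei, 197 stayed within their error or within 1.5 times the count under an alternative and 52 did not. Of the values of single genes, 511 stayed, 130 moved and 9 changed direction. A gene at the floor in both groups under an alternative gave no value there. No paired analysis was possible because each group is 1 pooled library and the groups share no replicates.

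With the nuclei high in Hspa1a and Hspa1b left out, an alternative chosen after seeing the data, the day 1 median log2 ratio was 0.18 in all and 0.13 in neuronal nuclei, and 3 genes (all nuclei) and 1 gene (glial nuclei) passed the threshold. Over all nuclei these were Hspa1a, Hspa1b and Dnajb1. No sham control nucleus was left out, so a value below the sham control is not read as a lower level. Then Dnajb1 was at -0.73 on the log2 scale over all nuclei and -1.05 in glutamatergic neurons, and Hsph1 at -0.18 in microglia and -0.34 in striatal projection neurons at day 1. In the last class Hsph1 was also at -0.29 without its top nucleus and -0.055 as a mean over nuclei.

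Thinned to 1000 UMIs, the day 1 medians were 0.67, 0.51 and -0.18 in all, neuronal and glial nuclei, with 2 neuronal genes past the threshold at day 1 and 2 at day 7, and 0 in all nuclei at day 7 and in neuronal and glial nuclei at day 3. Hsp90ab1 in microglia at day 1 was then at -0.14, and Hspd1 in glutamatergic neurons at day 7 at 0.46. As a mean of CPM over nuclei, the day 1 medians were 0.63 (all) and 0.58 (neuronal), with 1 gene past the threshold in all nuclei at day 7, 1 in glial nuclei at day 3 and 2 at day 7.

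With free RNA subtracted, the day 1 medians were 1.50, 1.52 and -0.40 in all, neuronal and glial nuclei. The glial medians were -2.28 at day 3 and 0.35 at day 7, with 6 and 4 genes past the threshold, and the neuronal median at day 7 was -0.13, with 3 genes. Hspa8 at day 7 over all nuclei was then at 0.24. The estimate of free RNA exceeded the measured level of Hspa8 over all nuclei and of all 10 members in day 1 glial nuclei, so these values settle no direction.

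Without Hspa1a and Hspa1b the neuronal day 1 median was 0.77, with 1 gene past the threshold in all nuclei at day 3 and 1 at day 7, 0 in neuronal nuclei at day 3 and 1 in glial nuclei at day 1. Without the top nucleus of each gene the neuronal day 1 median was 0.78, with 0 neuronal and 1 glial gene past the threshold at day 3. With at least 50 UMIs, 1 gene passed in all nuclei at day 7, 0 in neuronal nuclei at day 3, and 1 in glial nuclei at day 1 and 1 at day 3. With a fold of 2, 0 passed in all, neuronal and glial nuclei at day 7, and 1 in glial nuclei at day 1 and 1 at day 3.

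With TMM factors 1 gene passed in all nuclei at day 7 and 2 in neuronal nuclei at day 3, and with the class makeup of the sham control 1 in all and 2 in glial nuclei at day 7. With nuclei over 2000 UMIs, 0 passed in neuronal nuclei at day 3 and 2 in glial nuclei at day 7. With doublets kept 2 passed in glial nuclei at day 7, as did 2 without nuclei over 5% mitochondrial UMIs, which left 0 at day 3. Fewer genes, nuclei or UMIs enter several of these settings, and the cause of the other shifts was not tested.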
